A study of Mus musculus with 6 samples.

Results

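Orphan and purinergic receptors were compared between lipopolysaccharide-treated and untreated macrophage-like cells. Purinergic receptors sense nucleotides and adenosine outside the cell. P2X receptors are ATP-gated cation channels, P2Y receptors are G protein-coupled receptors for ATP, ADP, UTP, UDP or UDP-glucose, and the adenosine receptors respond to the nucleoside left when ectoenzymes strip the phosphates. Most genes named Gpr with a number encode membrane-spanning receptors that were named before a ligand was known; some have since been tied to protons, fatty acids or lysophospholipids, and a few are proteins of inner membranes that only carry the name. Adhesion receptors (Adgr) have long extracellular domains that touch other cells or matrix. In macrophages, ATP acting on P2rx7 is a known trigger of interleukin 1 beta release, and UDP acting on P2ry6 is a known cue for uptake of particles by microglia. Genes were taken where the platform annotation gave a probe a sole symbol of Gpr plus a digit, P2rx, P2ry, Adora or Adgr, with Adgre1 left out. This gave 44 genes of 10698 named on the array, represented by 75 probes of 16281.

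The cells were RAW 264.7, an established mouse line with macrophage character, so all values describe a lone transformed line. Treated cells received lipopolysaccharide (LPS, a bacterial outer-membrane component) at 100 ng/ml together with LPS-binding protein at 100 pM and were cultured for 16 hours; untreated cells were cultured for the same 16 hours. Part of the labels write the line as RAW 264.4. RNA of both conditions was hybridised to each of 6 dual-colour arrays, 3 with treated RNA in Cy5 and 3 with treated RNA in Cy3, and each orientation had sets 1, 2 and 3. Values are log2 ratios of treated over untreated, so 1 is a doubling, 0 is no difference and a negative value is a lower level in treated cells. Means and SDs of a gene are over 3 sets (n = 3), after the Cy5 and Cy3 arrays of a set were averaged. The labels do not say that sets were separate cultures, so the p-values cover only the spread among the sets, and that spread may be technical.

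Of the 44 receptor genes, 41 had a probe with a ratio on all 6 arrays. Among them were 4 P2X channels, 6 P2Y receptors, 1 adenosine receptor, 3 adhesion receptors and 27 Gpr-numbered genes. The other members, P2ry13, Gpr45 and Gpr165, are given further on. The direction was taken as Cy5 over Cy3, which the value table does not state. With it Il6 (log2 5.11), Il1b (4.63) and Ptgs2 (4.26), well-known LPS targets, came out higher in treated cells. As deposited, arrays of opposite orientation correlated at -0.852 to -0.622. Ratios carry no level, so neither receptor abundance nor the macrophage identity of the line could be read from them. Fewer cells expressing a gene and less RNA per cell cannot be told apart here. Of 6 measured macrophage markers, 5 were higher in treated cells and 1 lower (median 0.69), where 16.8% of all genes rose and 14.6% fell. Of the markers of other cell types, 1 of 3 for T cells and 1 of 2 for B cells rose, and the 3 for fibroblasts did not pass the test; their log2 ratios ran from -0.14 to 0.35, and their part in the receptor results was not tested.

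By limma, with adjusted p below 0.05 as the threshold, 8 of 41 receptor genes rose (19.5%, against 16.8% of all 9607 genes measured) and 6 fell (14.6%, against 14.6% of all genes). Together 14 changed (34.1%, against 31.4%), so the shares lay near those of the whole array. The count that rose was 5 without set 1, 5 where exact zeros were kept as ratios, and 5 where treated RNA was in Cy5. Calls over all genes, in either direction, also fell, from 3018 to 2158, 2103 and 2157 in the same order. With exact zeros kept, 44 receptor genes and 10698 genes in all were tested. Most changes were small: P2rx4 was the sole gene of these 41 past a 2-fold change, or 2.44% against 4.46% of all genes. The median absolute log2 ratio was 0.10 over the receptors and 0.14 over all genes. The genes that rose were P2rx4, Gpr132, Gpr65, Gpr84, Gpr137b, P2ry6, Adgrf4 and P2ry2, and those that fell were P2ry12, Gpr19, Adgre5, Gpr146, Gpr180 and Gpr35. Of the 41, 12 kept a common sign across the 6 arrays (35.6% of all genes did), and 11 of those were among the 14 called genes.

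**Figure D1:**
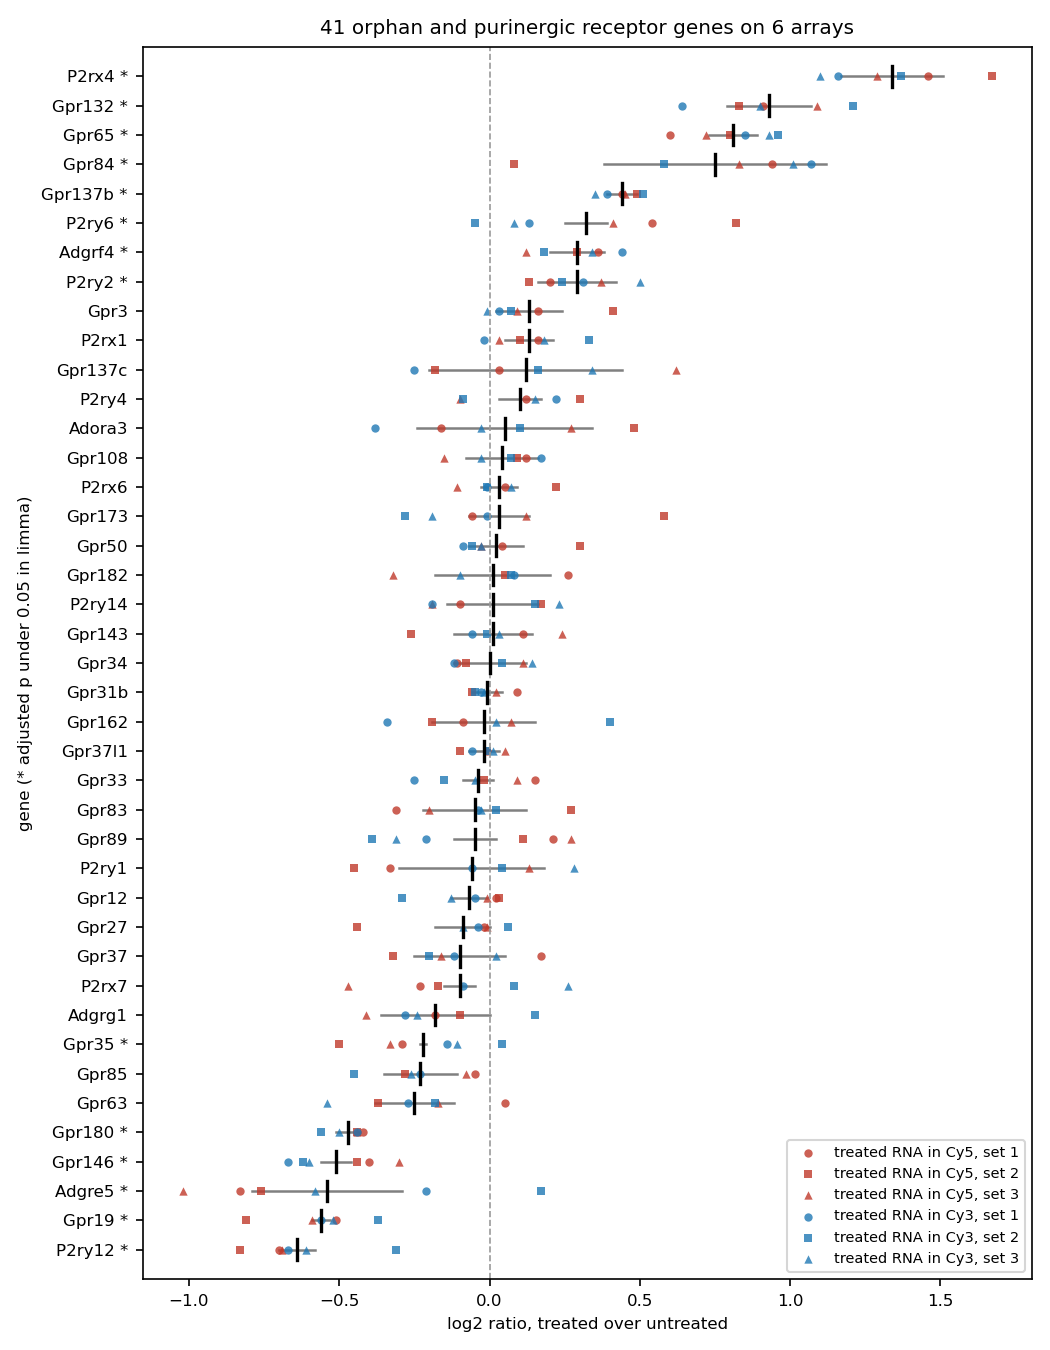
Log2 ratio (treated over untreated, x axis) of the 41 receptor genes (y axis) on each of 6 arrays, coloured by the dye of the treated RNA and shaped by set. The black tick is the mean and the grey bar the SD over 3 sets; P2rx4 stands highest at 1.34, P2ry12 lowest at -0.64, and most genes lie around 0.

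Promoters of called genes were read from RefSeq (GRCm38.p6), in windows from 250 bases before to 50 after an annotated start. Windows were found for 36 of 44 receptor genes and for 11 of the 14 called ones. These are shown for the member that rose most, the member that fell most, and Adgrf4, whose window held the most motif matches among called members. Capitals mark AP-1 matches (TGANTCA), and lower case is everything else.
P2rx4 (chr5:122707294-122707593, plus strand): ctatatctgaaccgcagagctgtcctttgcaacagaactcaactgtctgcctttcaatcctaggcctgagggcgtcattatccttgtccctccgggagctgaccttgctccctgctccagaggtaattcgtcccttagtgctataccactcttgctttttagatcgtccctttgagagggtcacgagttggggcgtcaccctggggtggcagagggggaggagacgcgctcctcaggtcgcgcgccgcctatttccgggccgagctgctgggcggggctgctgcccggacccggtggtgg
P2ry12 (chr3:59262936-59263235, minus strand): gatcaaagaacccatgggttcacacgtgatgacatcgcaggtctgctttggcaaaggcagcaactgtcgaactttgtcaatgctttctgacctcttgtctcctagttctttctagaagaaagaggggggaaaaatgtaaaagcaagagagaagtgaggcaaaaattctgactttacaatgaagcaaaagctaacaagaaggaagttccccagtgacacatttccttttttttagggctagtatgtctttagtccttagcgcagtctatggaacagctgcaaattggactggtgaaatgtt
Adgrf4 (chr17:42692235-42692534, minus strand): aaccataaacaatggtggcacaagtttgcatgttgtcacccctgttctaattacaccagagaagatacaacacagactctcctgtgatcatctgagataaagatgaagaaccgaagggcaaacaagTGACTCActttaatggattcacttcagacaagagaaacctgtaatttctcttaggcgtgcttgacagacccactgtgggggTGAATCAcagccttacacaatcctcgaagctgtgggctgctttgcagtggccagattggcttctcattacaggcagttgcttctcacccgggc
The windows of P2rx4 and P2ry12 held none of the 4 motifs searched, namely the kappaB consensus, the ISRE core (GAAA, any 2 bases, GAAA), AP-1 TGANTCA and CRE TGACGTCA, each on both strands. The Adgrf4 window held AP-1 matches beginning 124 and 43 bases before the start. The P2rx4 window was 60.3% G plus C with 18 CpG dinucleotides, while that of P2ry12 was 42.3% with 4. Over all 52 windows of receptor genes, 9 held AP-1 (17.3%, against 7.81% of all 32851 windows), 1 the ISRE core (1.92% against 3.44%), and 0 the kappaB consensus or CRE (4.51% and 1.79% of all windows). The AP-1 windows belonged to Adgrf4, Adgrg1, Adora3, Gpr146, Gpr3, Gpr35, P2rx7 and P2ry14, of which Adgrf4 rose and Gpr146 and Gpr35 fell. Several windows can belong to the same gene, and a match is a string of letters, not a measured binding site.

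P2X channels were represented by 4 genes, of which P2rx4 rose and the other 3 did not pass the test. P2rx4, a channel that macrophages keep largely on lysosomes, stood at 1.46, 1.67 and 1.29 in sets 1 to 3 with treated RNA in Cy5, and at 1.16, 1.37 and 1.10 with treated RNA in Cy3. Every array was well above 0, with Cy5 arrays somewhat higher within each set. The mean was a 2.54-fold rise (log2 1.34 ± 0.17, 95% interval 1.14 to 1.55, adjusted p = 6.94e-05), rank 259 by absolute change among all genes measured. Its measured probes gave 1.44 and 1.24, and a further probe of the gene was 0 on all 6 arrays and so held no ratio.

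P2rx7, which opens at high ATP and is the known route from ATP to the inflammasome, is the protein-coding gene next to P2rx4. Its ratios were -0.23, -0.17 and -0.47 with treated RNA in Cy5 and -0.09, 0.08 and 0.26 with treated RNA in Cy3. The Cy5 arrays were all below the Cy3 arrays (unadjusted p of the dye effect = 0.0276, adjusted p = 0.251 in limma), and the mean was -0.10 ± 0.05 (95% interval -0.27 to 0.06, adjusted p = 0.337). Another P2rx7 probe, with no ratio on 1 array, averaged 0.05 over 5 arrays. P2rx1, a fast ATP-gated channel of platelets and smooth muscle, was at 0.16, 0.10 and 0.03 with treated RNA in Cy5 and at -0.02, 0.33 and 0.18 with treated RNA in Cy3. Averaged over its probes it was near 0 in both, with a mean of 0.13 ± 0.08 (adjusted p = 0.238). The probes differed by orientation. A probe at 0.06 averaged -0.20 with treated RNA in Cy5 and 0.32 with treated RNA in Cy3. The other, at 0.20, averaged 0.39 and 0.00. P2rx6, a subunit that forms channels poorly by itself, was at 0.03 ± 0.06 (adjusted p = 0.781), with arrays from -0.11 to 0.22.

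Of 6 measured P2Y receptors, P2ry6 and P2ry2 rose and P2ry12 fell (33.3% and 16.7%, against 16.8% and 14.6% of all genes). P2ry12, an ADP receptor known from platelets and resting microglia, stood at -0.70, -0.83 and -0.69 with treated RNA in Cy5 and at -0.67, -0.31 and -0.61 with treated RNA in Cy3. All arrays were negative, those with treated RNA in Cy5 the lower, and the weakest was set 2 with treated RNA in Cy3. The level in treated cells was 1.55-fold lower (log2 -0.64 ± 0.06, adjusted p = 0.000759). Both of its probes were negative, at -0.75 and -0.52.

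P2ry6, the UDP receptor, was at 0.54, 0.82 and 0.41 with treated RNA in Cy5 but at 0.13, -0.05 and 0.08 with treated RNA in Cy3, so that the orientations did not overlap. Over sets the mean was 0.32 ± 0.07 (adjusted p = 0.0136). On the Cy3 arrays alone it was 0.06 (adjusted p = 0.675), and the call was also lost without set 1 or set 2 (adjusted p = 0.0737 and 0.0674). Its difference between orientations was 0.54 (adjusted p = 0.155 in the limma fit with a dye term).

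P2ry2, an ATP and UTP receptor next to P2ry6 in the genome, was at 0.20, 0.13 and 0.37 with treated RNA in Cy5 and at 0.31, 0.24 and 0.50 with treated RNA in Cy3. It was thus positive on every array, by little. The mean was 0.29 ± 0.13 (adjusted p = 0.0293) from 3 probes at 0.44, 0.27 and 0.16. The call was lost with the median of the probes (0.21, adjusted p = 0.133), without set 1 or set 3 (0.0956 and 0.117), with exact zeros kept (0.0692) and on the Cy5 arrays alone (0.155). The P2ry2 probes themselves held no exact zero, and with zeros of other genes kept the mean stayed at 0.29.

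The remaining P2Y receptors did not pass. P2ry4, a UTP receptor, was at 0.10 ± 0.07 (arrays from -0.10 to 0.30, adjusted p = 0.36), and a probe of it with ratios on 4 arrays averaged 0.11. P2ry1, a receptor for ADP, was at -0.06 ± 0.24 (adjusted p = 0.705), negative in sets 1 and 2 (-0.20 and -0.21) and positive in set 3 (0.21). P2ry14, the UDP-glucose receptor, was at 0.01 ± 0.15 (adjusted p = 0.936), with arrays from -0.19 to 0.23. P2ry13, an ADP receptor next to P2ry12, was listed at 0 on all 6 arrays and had no ratio.

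Adora3 was the adenosine receptor measured. Its complete probe read -0.16, 0.48 and 0.27 with treated RNA in Cy5 and -0.38, 0.10 and -0.03 with treated RNA in Cy3, with no common sign. The mean was 0.05 ± 0.29 (adjusted p = 0.818). Its other probes lacked ratios on some arrays and read higher, at 0.59 over 5 arrays and 0.50 over 4. With probes kept that had at least 1 complete set, the gene was at 0.27 (adjusted p = 0.142). Adora1, Adora2a and Adora2b had no probe with a sole symbol in the platform annotation and so were not analysed.

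Both proton-sensing receptors measured rose, at nearly the same size, where 16.8% of all genes rose. With 2 genes, this does not describe the class. Gpr132, linked to acid and to oxidised lipids, was at 0.91, 0.83 and 1.09 with treated RNA in Cy5 and at 0.64, 1.21 and 0.90 with treated RNA in Cy3. Its orientations overlapped fully, and the mean was a 1.90-fold rise (log2 0.93 ± 0.14, adjusted p = 0.000256) with probes at 0.99 and 0.86. Gpr65 (TDAG8), which raises cyclic AMP when the medium turns acid, was at 0.60, 0.80 and 0.72 with treated RNA in Cy5 and at 0.85, 0.96 and 0.93 with treated RNA in Cy3. All 6 were positive, and the Cy3 arrays were all above the Cy5 arrays. The rise was 1.75-fold (log2 0.81 ± 0.08, adjusted p = 0.000295). Another Gpr65 probe held a ratio on 1 array only, at -1.73, and 0 on the others. With exact zeros kept as ratios, averaging with that probe took the gene to 0.26 (adjusted p = 0.278).

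Of the 3 genes grouped here as receptors of lipids and metabolites, which leave out Gpr132, 1 rose and 1 fell. These shares were 33.3% each, against 16.8% and 14.6% of all genes. Gpr84, a receptor for medium-chain fatty acids known to be induced by LPS in myeloid cells, was at 0.94, 0.08 and 0.83 with treated RNA in Cy5 and at 1.07, 0.58 and 1.01 with treated RNA in Cy3. Set 2 was the lowest in both orientations. The mean was a 1.68-fold rise (log2 0.75 ± 0.37, adjusted p = 0.00587), with the largest SD of the 41 genes. The call was lost on the Cy5 arrays alone (0.62, adjusted p = 0.0507) and with exact zeros kept (adjusted p = 0.0707). The Gpr84 probe itself held no exact zero, and with zeros of other genes kept its mean stayed at 0.75. Gpr35, proposed to bind kynurenic acid, was at -0.29, -0.50 and -0.33 with treated RNA in Cy5 but at -0.14, 0.04 and -0.11 with treated RNA in Cy3. The orientations did not overlap. Gpr35 fell by 0.22 on the log2 scale (± 0.01, adjusted p = 0.0453), just under the threshold, and lost the call without set 1, 2 or 3 (adjusted p = 0.16, 0.135 and 0.113), under quantile normalization (0.0535) and on the Cy3 arrays alone (-0.07, 0.577). Gpr34, a lysophosphatidylserine receptor, was at 0.00 ± 0.12 (adjusted p = 0.981), with probes at 0.16 and -0.16.

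The orientations were also compared gene by gene. A dye effect passed the adjusted threshold of 0.05 (limma) in 0 of 41 receptor genes, against 0.364% of all genes, though 6 receptor genes had an unadjusted p under 0.05. These 6 were Gpr89, P2ry6, Adgre5, P2rx7, Gpr35 and Gpr146. The share of all genes under that unadjusted threshold was not counted, so the 6 do not set the receptors apart from the array. The lowest adjusted p was 0.135, for Gpr89.

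**Figure D2:**
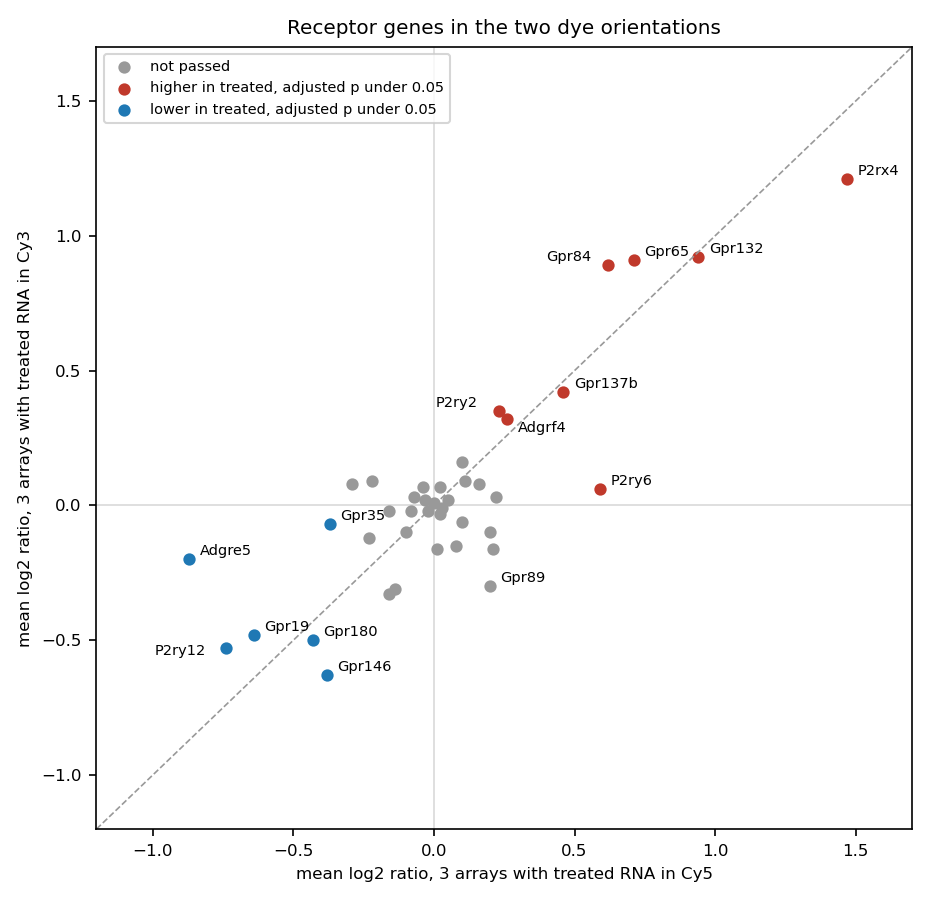
Mean log2 ratio (treated over untreated) of each of 41 receptor genes for treated RNA in Cy5 (x axis, 3 arrays) and for treated RNA in Cy3 (y axis, 3 arrays); the dashed line marks equal values. P2rx4, Gpr132, Gpr65 and Gpr84 lie near the line at the upper right, while P2ry6 (0.59 and 0.06) and Adgre5 (-0.87 and -0.20) lie off it.

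Among the adhesion receptors taken, 1 of 3 rose and 1 fell (33.3% each, against 16.8% and 14.6% of all genes). Adgre1, left out by the selection, rose 3.45-fold (log2 1.79 ± 0.13, adjusted p = 1.29e-05 in limma). Adgre5 (CD97), a leukocyte receptor that binds CD55, was at -0.83, -0.76 and -1.02 with treated RNA in Cy5 and at -0.21, 0.17 and -0.58 with treated RNA in Cy3. Orientations did not overlap, and 1 array was positive. The mean was 1.45-fold lower (log2 -0.54 ± 0.25, adjusted p = 0.00833), but on the Cy3 arrays alone it was -0.20 (adjusted p = 0.301), and the call was also lost with exact zeros kept (adjusted p = 0.0678). The Adgre5 probes themselves held no exact zero, and with zeros of other genes kept the mean stayed at -0.54. Its probes differed by 0.96. One was at -1.02 (adjusted p over all probes = 9.31e-05), with like values in both orientations (-1.10 and -0.94). The other was at -0.06 (adjusted p = 0.854), with -0.65 in the Cy5 orientation and 0.53 in the Cy3 orientation.

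Adgrf4, an adhesion receptor with no settled ligand, was at 0.36, 0.29 and 0.12 with treated RNA in Cy5 and at 0.44, 0.18 and 0.34 with treated RNA in Cy3. All 6 arrays were positive, and the orientations overlapped. The mean of 0.29 ± 0.09 (adjusted p = 0.0243) lost its call without set 1 or set 2 (adjusted p = 0.147 and 0.0617) and on the Cy5 arrays alone (0.125). Adgrg1 (Gpr56) was at -0.18 ± 0.18 (adjusted p = 0.193), with probes at -0.36 and 0.01.

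Of 5 genes grouped here as Gpr-named proteins of inner membranes, 1 rose and 1 fell (20.0% each, against 16.8% and 14.6% of all genes). Gpr137b, a lysosomal membrane protein, was at 0.44, 0.49 and 0.45 with treated RNA in Cy5 and at 0.39, 0.51 and 0.35 with treated RNA in Cy3. The arrays hardly differed, and the rise was 1.35-fold (log2 0.44 ± 0.05, adjusted p = 0.00369). Gpr180 ran as evenly in the other direction, at -0.42, -0.44 and -0.44 with treated RNA in Cy5 and at -0.44, -0.56 and -0.50 with treated RNA in Cy3. It was 1.38-fold lower in treated cells (log2 -0.47 ± 0.04, adjusted p = 0.0026). Gpr137c, a relative of Gpr137b, was at 0.12 ± 0.32 (adjusted p = 0.538), with 0.48 in set 3 against -0.11 and -0.01 in sets 1 and 2. Gpr108 was at 0.04 ± 0.12 (adjusted p = 0.738). Gpr89, a Golgi ion channel involved in acidification, averaged -0.05 ± 0.07 (adjusted p = 0.666). It was positive on every Cy5 array and negative on every Cy3 array, a split that 1 of 41 receptor genes and 6.43% of all genes showed.

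The remaining Gpr-numbered genes, mostly receptors best known from brain, gave 2 that fell of 17 measured (11.8% changed, against 31.4% of all genes), and the other 15 did not pass. Gpr19, an orphan receptor, was at -0.51, -0.81 and -0.59 with treated RNA in Cy5 and at -0.56, -0.37 and -0.52 with treated RNA in Cy3. It was negative on every array and 1.48-fold lower (log2 -0.56 ± 0.03, adjusted p = 0.00115). That mean joined a probe at -0.97 (adjusted p over all probes = 0.000202) and a probe at -0.15 (0.207). Gpr146, an orphan receptor studied for its part in blood cholesterol, was at -0.40, -0.44 and -0.30 with treated RNA in Cy5 and at -0.67, -0.62 and -0.60 with treated RNA in Cy3. The Cy3 arrays were the lower throughout, and the mean was 1.42-fold lower (log2 -0.51 ± 0.05, adjusted p = 0.00194).

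Of those that did not pass, Gpr63 (-0.25 ± 0.13, adjusted p = 0.0528) and Gpr85 (-0.23 ± 0.12, adjusted p = 0.0691) came closest. Gpr63, a brain receptor, was at 0.05, -0.37 and -0.17 with treated RNA in Cy5 and at -0.27, -0.18 and -0.54 with treated RNA in Cy3. Gpr85 was at -0.05, -0.28 and -0.08 with treated RNA in Cy5 and at -0.23, -0.45 and -0.26 with treated RNA in Cy3. Gpr63 was negative on 5 arrays and Gpr85 on all 6, and in both genes the Cy3 arrays were lower on average. Another Gpr85 probe, with no ratio on 1 array, averaged 1.15 over the other 5, and the gene's mean turned positive where that probe was included (0.21, adjusted p = 0.459) and where exact zeros were kept (0.37, adjusted p = 0.124). Gpr63 passed under robust variance moderation (adjusted p = 0.0458), and both passed on the Cy3 arrays alone (0.0403 and 0.0354) and in the fit to 6 arrays with a dye term (0.0337 and 0.0198). Gpr85 belongs with Gpr27 and Gpr173 to a small family conserved in brain, and the relatives were at -0.09 ± 0.09 and 0.03 ± 0.10 (adjusted p = 0.435 and 0.848). Gpr3 and Gpr12, which raise cyclic AMP without a ligand, were at 0.13 ± 0.11 and -0.07 ± 0.06 (adjusted p = 0.272 and 0.518). Gpr37, a prosaposin-linked receptor of glia, was at -0.10 ± 0.15 (adjusted p = 0.428), and its relative Gpr37l1 at -0.02 ± 0.05 (adjusted p = 0.877).

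Gpr50, Gpr182, Gpr143, Gpr31b, Gpr162, Gpr33 and Gpr83 had means between -0.05 and 0.02, each with both signs among its arrays. Gpr45 and Gpr165 had a ratio on 1 array each (0.05 and 0.12), and no test was made. Over all 27 genes that did not pass, the 95% intervals from complete probes reached from -0.43 to 0.40, within 0.5 on the log2 scale. This bound depended on the probe filter. With probes kept that had at least 1 complete set, the intervals of Gpr85 (-0.21 to 0.63) and Adora3 (-0.01 to 0.55) passed 0.5. The adjusted p does not show that these genes were the same in both conditions.

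Tested probe by probe, 18 of 61 complete receptor probes changed (29.5%, against 30.8% of all complete probes). The 19 receptor genes with several complete probes had a median span of 0.14 between their probes, against 0.12 over 1846 such genes of the array. Gpr19 (0.82) and Adgre5 (0.96) spanned most. Of the 75 receptor probes, 14 lacked a ratio on at least 1 array, and they belonged to 13 genes. A partly measured Gpr85 probe read 0.97, 1.16 and 1.39 with treated RNA in Cy5 and 0.93 and 1.31 with treated RNA in Cy3. All 5 of its ratios were thus high, while the complete probe of the gene was negative on all 6 arrays (-0.45 to -0.05). Partly measured probes of Gpr3 and Gpr31b averaged 0.25 and -0.07 over 5 arrays, and a probe of Gpr83 had a ratio on 1 array (0.04). Another P2ry1 probe was 0 on all 6 arrays.

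**Figure D3:**
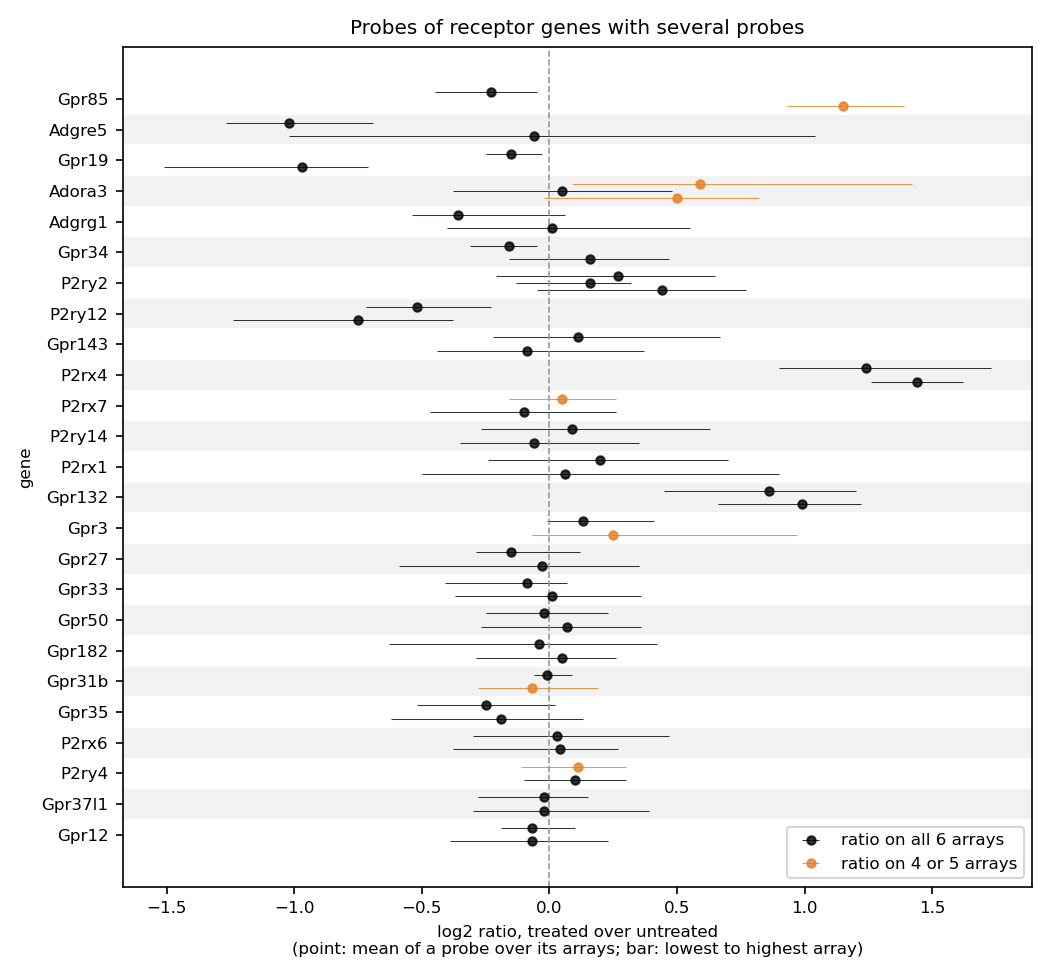
Log2 ratio (treated over untreated, x axis) of each probe of receptor genes with at least 2 probes measured on 4 or more arrays (y axis, ordered by the span between probes); points are means over arrays, bars run from the lowest to the highest array, and orange marks probes with a missing ratio. The probes of Gpr85 stand at -0.23 and 1.15, those of Adgre5 at -1.02 and -0.06, and those of P2rx4 at 1.44 and 1.24.

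Genes of ATP and adenosine turnover were set beside the receptors, from a list of 36 of which 26 were measured. The list mixes enzymes that act inside cells with those that act outside, so its counts do not describe extracellular nucleotides alone. It was chosen with earlier results of these data known, so the counts are a description. In this list 5 rose and 7 fell (19.2% and 26.9%, against 16.8% and 14.6% of all genes), with a median log2 ratio of -0.07 against -0.01 for all genes. The nucleoside transporter Slc28a2 rose 2.83-fold (log2 1.5 ± 0.50, adjusted p = 0.000869), and the purine phosphorylase Pnp rose 1.90-fold (0.92 ± 0.14, adjusted p = 0.000282). Entpd5, a nucleoside diphosphatase of the endoplasmic reticulum, was 1.65-fold lower (-0.72 ± 0.04, adjusted p = 0.00041), and Ada, which deaminates adenosine, was 1.59-fold lower (-0.67 ± 0.26, adjusted p = 0.00356). Nt5e (CD73), the ectoenzyme that makes adenosine from AMP, rose by little (0.35 ± 0.11, adjusted p = 0.0126). Its mean was 0.61 with treated RNA in Cy5 and 0.09 with treated RNA in Cy3, and 1 array was negative. Entpd1 (CD39), which removes phosphates from ATP, was at 0.21 ± 0.38 (adjusted p = 0.31), with 0.64 in set 2 against -0.09 and 0.09 in sets 1 and 3.

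Genes tied to P2rx7 output rose in 8 of 13 measured cases and fell in 1 (61.5% and 7.7%, against 16.8% and 14.6% of all genes; median log2 0.76). This list holds cytokine genes long known as LPS targets, and it was chosen with their rise known, so the count is a description. The cytokines Il1b (log2 4.63) and Il1a (4.42) led it, while Nfatc1, a calcium-regulated transcription factor, was the member that fell (-0.73 ± 0.08, adjusted p = 0.000462). Panx1, a channel that lets ATP out, was at 0.08 ± 0.16 (adjusted p = 0.534), and Pycard, the inflammasome adaptor, at -0.02 ± 0.10 (adjusted p = 0.882). Both means joined opposed orientations. With treated RNA in Cy5 and in Cy3, Panx1 averaged -0.24 and 0.41, and Pycard 0.31 and -0.36. Pycard was positive on every Cy5 array and negative on every Cy3 array, and Panx1 was the reverse. Such a split was seen in 6.43% of all genes.

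Other G protein-coupled receptors were set beside them. Of 83 measured from a list of 127, 20 rose and 7 fell (24.1% and 8.4%, against 16.8% and 14.6% of all genes). Changes past 2-fold were seen in 8 of them, all upward (9.64%, against 4.46% of all genes), and in 1 of the 41 orphan and purinergic receptors. This difference was not tested. Both the list and the receptors were chosen with earlier results of these data known, so the shares are a description. The chemerin-binding receptor Ccrl2 (log2 2.81 ± 0.32) and Calcrl, a receptor of calcitonin-family peptides (2.39 ± 0.77), rose most. The chemokine receptors Cx3cr1 (-0.94 ± 0.04) and Cxcr3 (-0.89 ± 0.25) fell most.

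**Figure D4:**
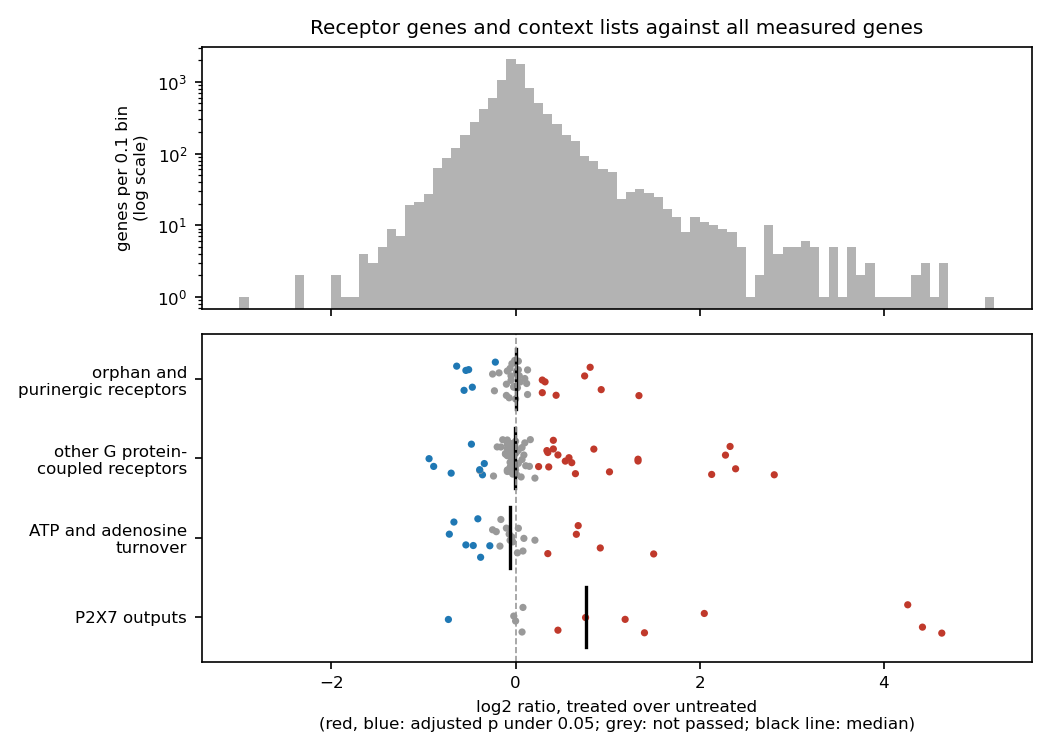
Top, distribution of log2 ratios (treated over untreated) over all genes measured in bins of 0.1, with a log-scaled count axis; bottom, each gene of the receptors and of the 3 context lists, with medians as black lines. The orphan and purinergic receptors run from -0.64 to 1.34, the other receptors from -0.94 to 2.81, and their medians are 0.00 and -0.01.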

How the data were processed

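The deposited table holds log2 ratios of the 2 channels of each array, as read from signs and range; how the authors corrected background and normalized is not stated in the labels or the table. Column medians were 0, and exact zeros (9.56% to 12.86% of probes per array) were taken as missing. Ratios ended at 100-fold. Of 16281 probes, 13738 had 1 gene symbol, 52 several and 2491 were not listed in the platform annotation. All 44 receptor genes matched the GRCm38.p6 gene table by Entrez identifier. Arrays were turned to treated over untreated, complete probes (a ratio on each of 6 arrays) were averaged per gene (9607 genes), and so were the orientations of a set number. The mean of the 3 sets was then compared with 0, two-sided, by lmFit and eBayes of limma 3.58.1 (R 4.3.3); p-values were Benjamini-Hochberg adjusted over all genes, with a threshold of 0.05. Dye effects came from a limma fit to 6 arrays with treatment and dye. The fits were tested on simulated data. Probe p-values were adjusted over 13418 probes. The number of arrays limits the precision.

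Members and lists were chosen with earlier results of these data known. Named genes are all members, from each context list the 2 that rose and fell most, and Il6, Il1b and Ptgs2; Nt5e, Entpd1, Panx1, Pycard and Ift81 were singled out after their values were seen. Alternatives covered zeros, filters, centring, quantile normalization, dye terms, the set as a block, orientations, robust moderation, the median of probes and each set left out. Python 3.11.15 made tables and figures.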

Additional observations from a re-analysis of the deposited data

Results flagged for a closer look

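Gpr89 had opposite signs in the 2 dye orientations on all 6 arrays, at 0.21, 0.11 and 0.27 with treated RNA in Cy5 and at -0.21, -0.39 and -0.31 with treated RNA in Cy3, a difference of 0.50 (unadjusted p = 0.00205, adjusted p = 0.135 in the limma fit with a dye term). Opposite signs of this kind were seen in 6.43% of all genes and in 1 of the 41 receptor genes. A Gpr85 probe left out for a missing ratio on 1 array averaged 1.15 over the other 5, all of them positive, against -0.23 for the gene's complete probe. An Adora3 probe left out for the same reason averaged 0.59 over 5 arrays, all positive, from 0.09 to 1.42.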

How the results depend on the processing

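Over 13 alternatives, 7 of the 14 called receptor genes kept their direction and call under all (P2rx4, Gpr132, Gpr137b, Gpr180, Gpr146, Gpr19 and P2ry12), and 7 lost the call under at least 1, with no called gene reversed. The share of all called genes that kept their call throughout was not counted, so the 7 of 14 has no background. P2rx4 ranged from 0.89 to 1.47 and P2ry12 from -0.74 to -0.53. The count of receptors that rose, 8, was 5 with exact zeros kept and 5 on the Cy5 arrays alone (treated RNA in Cy5). Of all genes, 3018 changed in the main fit, and 2103 and 2157 in these 2 alternatives. The count of receptors that fell, 6, stayed within 1.5 times. Without 1 set, 5 to 7 rose (5 without set 1) and 5 fell, and 2158 to 2990 of all genes changed. Other receptors that rose numbered 12 with exact zeros kept (20 otherwise), 4 fell on the Cy5 arrays alone (7 otherwise), and 2 P2rx7 output genes fell on the Cy3 arrays alone (1 otherwise); the cause was not tested.

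The set numbers do not clearly pair arrays: deviations of same-numbered arrays correlated at 0.188, 0.05 and 0.544, and not every array correlated best with its own number. With the set as a replicate block in a fit to 6 arrays, 8 receptors rose, 6 fell and 3088 of all genes changed, Gpr35 lost its call (adjusted p = 0.055), Gpr85 gained it (0.0388), and 1 receptor, Gpr89, had a dye effect (adjusted p = 0.0367) where 0 had without the block.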

Other observations

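Some receptor genes are neighbours in the GRCm38.p6 gene order, with no other protein-coding gene between them. P2rx7 (log2 -0.10) lies between Ift81, a ciliary transport gene that was lower in treated cells (-0.45 ± 0.03, adjusted p = 0.00283), and P2rx4 (1.34). P2ry6 and P2ry2 are adjacent and were close to each other, at 0.32 and 0.29. P2ry12 (-0.64) is next to P2ry13, which had no ratio. Whether neighbours differ in response was not tested.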
